A study of Rattus norvegicus with 9 samples.

Results

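The mammalian circadian clock is a loop of transcription factors that most cells carry, and 10 of its genes (Arntl, Clock, Per1, Per2, Per3, Cry1, Cry2, Nr1d1, Nr1d2, and Dbp) were followed here in cultured rat adipose-derived mesenchymal stem cells (ASCs). The members were chosen by symbol among the 35362 genes of the deposited count table, and all 10 were present and passed the filter on low counts. The cells came from 3 fat depots of male Sprague Dawley rats, 6 weeks old, namely the subcutaneous depot of the groin (SASCs), the perirenal depot (PASCs), and the epididymal depot (EASCs). RNA was sequenced from untreated cells at passage 3, with 3 samples per depot. The rats had been starved for 12 h before the fat was taken, and the cells of all groups grew for 3 days in high-glucose medium with serum. The question was how the clock genes differed between ASCs of the 3 fat depots, and how far their levels spread among replicates.

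In the clock loop, ARNTL (also named BMAL1) and CLOCK pair and switch on genes whose promoters carry E-box sequences, among them the Per, Cry, Nr1d, and Dbp genes. PER and CRY proteins return to the nucleus and block that pair, which gives the cycle of about a day. NR1D1 and NR1D2 (REV-ERB alpha and beta) repress Arntl through a response element that the activating ROR receptors share, and DBP drives outputs through the D-box. In a cultured population each cell keeps its own time unless a common stimulus such as fresh serum aligns the cells, so that one harvest gives one point of the cycle or a mean over cells out of phase. The labels and the methods used here gave no clock time of harvest. They give 3 days of culture before RNA was taken, without saying whether the medium was changed within them, so depot and harvest time cannot be told apart in any comparison between groups. The methods describe 6 replicate culture wells per group, 3 samples per group were analysed here, and the sample labels all share a single prefix. Whether replicates stem from different rats was not given, and p-values then measure only the spread between these samples, which may be technical.

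The sequences just upstream of the start sites show where the letters of these elements stand in members from each arm of the loop. RefSeq start-site windows (build GRCr8, 250 bases before to 50 after a start) matched 9 of the 10 members with 11 starts. Both strands were searched for the E-box CACGTG, the variant CACGTT, the D-box letters TTATGTAA and TTACGTAA, the core of the REV-ERB and ROR element AGGTCA and its longer form TAGGTCA, and the cAMP element TGACGTCA. The 250 bases upstream of 4 starts are shown 5′ to 3′, with matches in capitals: Arntl for the longer REV-ERB and ROR letters, Nr1d2 for the core alone, the second start of Nr1d1 for the E-box, and Per2 for the E-box variant and the D-box letters.
Arntl (Bmal1 in RefSeq), chr1:176766078-176766327, plus strand: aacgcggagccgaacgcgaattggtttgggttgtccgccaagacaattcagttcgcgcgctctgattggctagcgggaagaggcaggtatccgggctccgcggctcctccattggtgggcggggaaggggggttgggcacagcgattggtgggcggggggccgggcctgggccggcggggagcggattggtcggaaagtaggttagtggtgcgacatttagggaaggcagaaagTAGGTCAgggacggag
Nr1d2, chr15:9954784-9955033, plus strand: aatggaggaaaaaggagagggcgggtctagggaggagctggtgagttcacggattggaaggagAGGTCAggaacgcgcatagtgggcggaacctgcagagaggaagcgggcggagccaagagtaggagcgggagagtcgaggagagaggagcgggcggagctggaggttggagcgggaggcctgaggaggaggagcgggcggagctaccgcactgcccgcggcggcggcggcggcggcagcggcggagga
Nr1d1, second start, chr10:84229455-84229704, minus strand: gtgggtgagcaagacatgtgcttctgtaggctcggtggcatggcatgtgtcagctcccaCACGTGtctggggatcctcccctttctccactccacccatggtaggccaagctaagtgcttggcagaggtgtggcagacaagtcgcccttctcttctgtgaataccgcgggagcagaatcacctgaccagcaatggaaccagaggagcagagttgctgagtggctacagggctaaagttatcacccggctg
Per2, chr9:99496994-99497243, minus strand: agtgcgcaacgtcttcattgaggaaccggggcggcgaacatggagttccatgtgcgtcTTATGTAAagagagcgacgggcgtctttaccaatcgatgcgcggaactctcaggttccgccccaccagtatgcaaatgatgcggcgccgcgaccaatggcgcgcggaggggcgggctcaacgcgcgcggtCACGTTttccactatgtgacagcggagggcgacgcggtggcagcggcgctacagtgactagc

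In Arntl, TAGGTCA began 16 bases before the start, and it holds the core AGGTCA. That longer form was in 2.63% of all 33469 rat windows of the same length, and the core was in 16.2%. Nr1d2 held the core alone, 187 bases before its start. The second start of Nr1d1 held CACGTG 191 bases upstream, as did 6.42% of all windows. CACGTT, found in 4.83% of all windows, stood 62 bases upstream in Per2, 212 in Cry2, and 174 in the first start of Nr1d1. TTATGTAA, in 0.893% of all windows, was 192 bases upstream in Per2. No match to the letters searched was found in the windows of Per1, Per3, Dbp, or either start of Clock, which says only that these letters are not in those windows. These matches describe sequence and were not set against binding data.

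Totals ranged from 17591916 to 30299032 counts per sample, and reads on ribosomal RNA genes took 10.4% to 15.5% in the SASCs, 22.4% to 32.9% in the PASCs, and 15.9% to 40.3% in the EASCs. Levels are therefore given as CPM, the counts scaled to library size, after TMM scaling, with edgeR's quasi-likelihood test and Benjamini-Hochberg adjustment over 14770 genes, and a differentially expressed gene (DEG) had to change more than 2-fold with an adjusted p below 0.05. Of all DEGs against SASCs, higher genes made up 48.8% in EASCs and 44.7% in PASCs, against 28.3% and 28.5% when total counts replaced TMM. The 6 mesenchymal markers (Thy1, Eng, Nt5e, Cd44, Pdgfra, and Pdgfrb) were read in every group, with summed levels of 3100 to 3206 CPM in the SASCs, 2017 to 2051 in the PASCs, and 2025 to 2085 in the EASCs. Pdgfra made up the drop in that sum (1543 CPM in SASCs, 278 in PASCs, and 235 in EASCs), while by adjusted p 3 of the 6 were higher and 3 lower in EASCs (Eng log2 1.77, Nt5e 0.91) and 3 higher and 2 lower in PASCs. Of all genes tested, 69.7% passed by adjusted p in EASCs and 69.2% in PASCs. The least-read member, Cry1, had at least 155 counts in each sample, so that depth did not limit detection of any member.

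ASCs of the visceral depots carried more Arntl and less Nr1d2, Dbp, and Per1 mRNA than SASCs. In EASCs 1 of the 10 clock genes was a higher DEG (Arntl) and 2 were lower DEGs (Dbp and Nr1d2), beside 13.6% of all genes tested that were higher and 14.2% that were lower DEGs. In PASCs 1 was higher (Arntl) and 4 were lower (Dbp, Nr1d1, Nr1d2, and Per1), beside 12.0% and 14.9% of all genes tested. At an adjusted p below 0.05 and any fold change, 9 of 10 passed in EASCs (2 higher and 7 lower) and 9 of 10 in PASCs (3 higher and 6 lower), beside 69.7% and 69.2% of all genes tested, so passing by adjusted p alone was common. The median log2 fold change over the 10 genes was -0.45 in EASCs and -0.48 in PASCs, beside 0.01 and -0.01 over all genes tested. Both comparisons share the SASCs samples. In these bulk cultures, fewer cells of a type and less RNA per cell cannot be told apart.

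**Figure D1:**
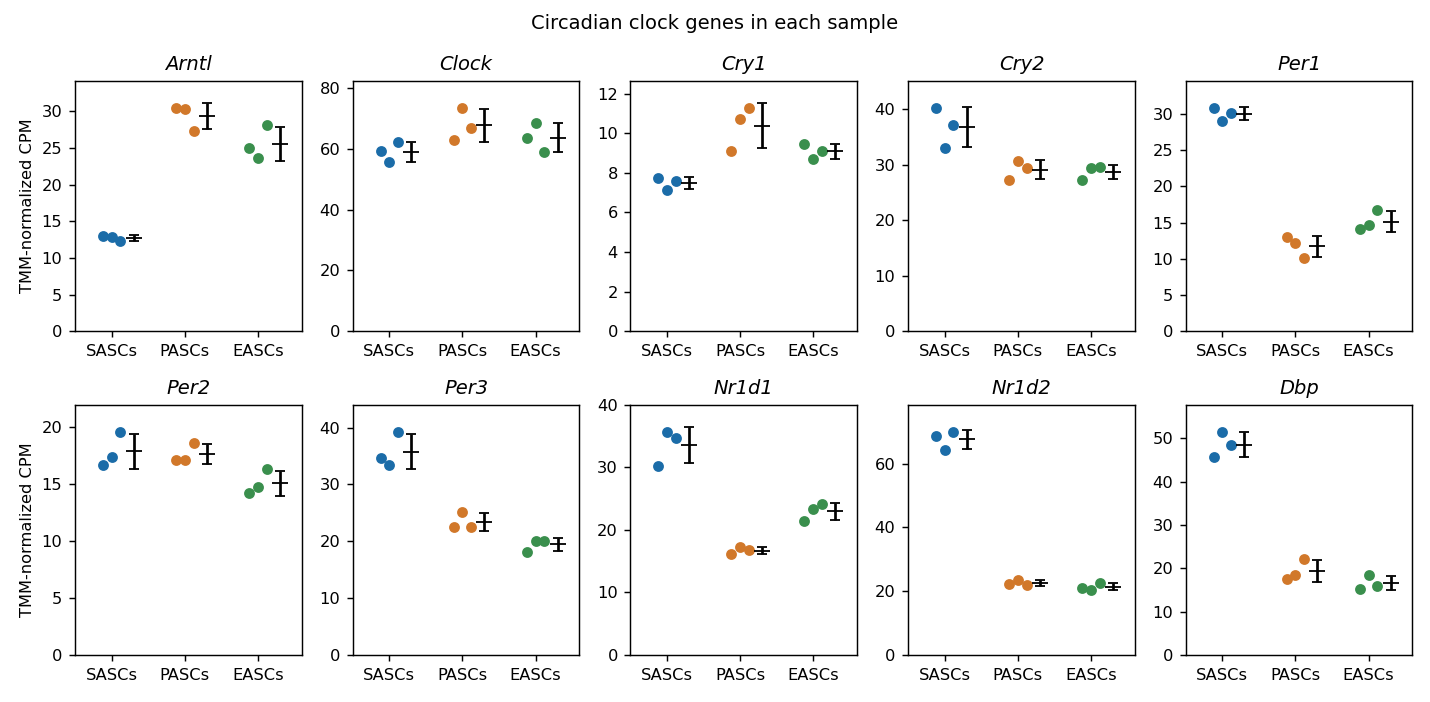
TMM-normalized CPM of each clock gene (vertical axes, each from 0) in the 9 samples, with points for single samples and bars for the mean ± SD of 3 samples per group. Arntl sits between 12.3 and 13.0 CPM in SASCs and above 23 CPM in all PASCs and EASCs samples, while Nr1d2 and Dbp stand highest in SASCs.

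Among the activators, Arntl moved and Clock stayed near its SASCs level. Arntl (gene ID 29657) read 13.0, 12.8, and 12.3 CPM in the SASCs, 30.5, 30.4, and 27.4 in the PASCs, and 24.95, 23.7, and 28.1 in the EASCs. All 6 visceral samples lay above all SASCs samples. The group means were 12.7 ± 0.378, 29.4 ± 1.77, and 25.6 ± 2.30 CPM (SD, n = 3), and the log2 fold change was 1.21 ± 0.09 (SE) in PASCs (adjusted p = 2.27e-12) and 1.01 ± 0.09 in EASCs (adjusted p = 1.27e-10). The EASCs value lies at the DEG threshold of 2-fold: with DESeq2, with total counts, without SASCs replicate 3, and without EASCs replicate 3 it was below that fold and passed by adjusted p alone (log2 fold changes from 0.94 to 1.06 over the single samples left out). With total counts, Arntl also stayed below 2-fold in PASCs (log2 0.88).

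Clock, the partner of ARNTL, read 59.1, 55.6, and 62.1 CPM in the SASCs, 62.8, 73.4, and 66.8 in the PASCs, and 63.6, 68.5, and 58.9 in the EASCs. PASCs samples all lay above SASCs samples by a small margin, while EASCs overlapped both groups. Its log2 fold change was 0.20 ± 0.07 in PASCs (adjusted p = 0.0118) and 0.11 ± 0.07 in EASCs (adjusted p = 0.148), and with total counts, which moved the median of all genes to -0.33 and -0.39, both turned negative (-0.13 and -0.27). Leaving out 1 library also moved the call: the PASCs difference missed the threshold without SASCs replicate 2 (adjusted p = 0.0721) or PASCs replicate 2 (adjusted p = 0.115), and the EASCs difference passed without EASCs replicate 3 (adjusted p = 0.0424).

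The REV-ERB genes, repressors of Arntl, were lower in both visceral groups. Nr1d2 (gene ID 259241) read 68.7, 64.3, and 70.1 CPM in the SASCs, 22.3, 23.6, and 21.8 in the PASCs, and 21.0, 20.4, and 22.5 in the EASCs. No visceral sample came near a SASCs sample, and PASCs and EASCs overlapped. Its log2 fold change was -1.58 ± 0.07 in PASCs (adjusted p = 3.5e-17) and -1.67 ± 0.07 in EASCs (adjusted p = 1.2e-17), the largest change of the 10 genes in each comparison. Against the SD between replicates within groups on the log2 scale, 0.0651 for this gene, the changes were 24.3 and 25.6 times as large. The SD expected from counting reads alone was 0.0560, so most of this spread may be read sampling.

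Nr1d1 (gene ID 252917) was graded across the depots. It read 30.3, 35.7, and 34.7 CPM in SASCs, 21.5, 23.3, and 24.2 in EASCs, and 16.1, 17.2, and 16.7 in PASCs. These 3 groups did not overlap. The log2 fold change was -1.01 ± 0.09 in PASCs (adjusted p = 4.43e-11) and -0.54 ± 0.08 in EASCs (adjusted p = 1.94e-06), and EASCs exceeded PASCs by 0.46 ± 0.09 (adjusted p = 1.4e-04). In PASCs the change lies at the 2-fold threshold, and the DEG call was lost with upper quartile scaling and without SASCs replicate 2, SASCs replicate 3, or PASCs replicate 1 (log2 fold changes from -1.08 to -0.96 over the single samples left out).

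In the table's coordinates (rn6 by the methods used here, rn5 by the submitters' processing notes), Arntl spans chromosome 1 from 178039063 to 178137469 and Dbp the same chromosome from 101687896 to 101692845, both on the plus strand. On that strand too, Nr1d2 spans chromosome 15 from 8730871 to 8757165 and Per1 chromosome 10 from 55681734 to 55696557. Nr1d1 spans chromosome 10 from 86683875 to 86690815 on the minus strand and overlaps Thra, a thyroid hormone receptor gene on the plus strand, by 1061 bases. Whether reads were counted by strand was not given, so reads in the overlap may have gone to either gene. Thra averaged 58.1 CPM in SASCs, 41.0 in PASCs, and 42.5 in EASCs, with a log2 fold change of -0.50 ± 0.06 in PASCs and -0.45 ± 0.06 in EASCs. The share of the Nr1d1 difference that comes from such reads was not tested. Clock, Cry1, and Cry2 overlap annotated transcripts with at most 51 counts in any sample.

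Dbp, a D-box transcription factor that serves as an output of the loop, was the highest member per kilobase in every group. It read 45.7, 51.6, and 48.4 CPM in the SASCs, 17.4, 18.5, and 22.2 in the PASCs, and 15.3, 18.4, and 16.0 in the EASCs. Every visceral sample was below 23 CPM, and the visceral groups overlapped each other. The log2 fold change was -1.33 ± 0.09 in PASCs (adjusted p = 2.92e-13) and -1.55 ± 0.09 in EASCs (adjusted p = 1.42e-14), and both DEG calls held under every alternative run.

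Of the Per genes, which encode repressors of the ARNTL and CLOCK pair, Per1 and Per3 were lower in visceral ASCs and Per2 changed little. Per1 (gene ID 287422) read 30.9, 29.1, and 30.2 CPM in the SASCs, 13.0, 12.1, and 10.2 in the PASCs, and 14.1, 14.6, and 16.7 in the EASCs. The 3 groups did not overlap, with PASCs lowest. The log2 fold change was -1.34 ± 0.10 in PASCs (adjusted p = 1.58e-12) and -0.99 ± 0.10 in EASCs (adjusted p = 5.2e-10). The EASCs value stops just short of 2-fold, and Per1 became a DEG there with DESeq2, with total counts, without SASCs replicate 2, or without EASCs replicate 3 (log2 fold changes from -1.06 to -0.94 over the single samples left out).

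Per3 read 34.6, 33.4, and 39.3 CPM in the SASCs, 22.5, 25.2, and 22.5 in the PASCs, and 18.2, 20.1, and 20.1 in the EASCs. SASCs were highest and EASCs lowest, without overlap. The log2 fold change was -0.61 ± 0.08 in PASCs (adjusted p = 3.12e-07) and -0.88 ± 0.08 in EASCs (adjusted p = 5.18e-10), neither past 2-fold. With total counts Per3 passed 2-fold in EASCs (log2 -1.27).

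Per2 was the flattest of the Per genes, at 16.7, 17.4, and 19.6 CPM in the SASCs, 17.1, 17.2, and 18.6 in the PASCs, and 14.2, 14.7, and 16.3 in the EASCs. SASCs and PASCs overlapped throughout, and the highest EASCs sample stood just under the lowest of the others. Its log2 fold change was -0.02 ± 0.10 in PASCs (adjusted p = 0.870) and -0.24 ± 0.10 in EASCs (adjusted p = 0.0269). The EASCs call was lost with upper quartile scaling (adjusted p = 0.0582) and without SASCs replicate 3 (0.137), EASCs replicate 1 (0.106), or EASCs replicate 2 (0.0808).

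The Cry genes, which encode the partners of the PER proteins, showed the smallest changes beside Clock and Per2, and they moved in opposite directions under TMM scaling. Cry2 read 40.3, 33.1, and 37.2 CPM in the SASCs, 27.2, 30.6, and 29.4 in the PASCs, and 27.3, 29.5, and 29.6 in the EASCs, with log2 fold changes of -0.34 ± 0.08 in PASCs (adjusted p = 4.01e-04) and -0.36 ± 0.08 in EASCs (adjusted p = 2.6e-04). All 6 visceral samples were below all SASCs samples. Cry1 read 7.75, 7.13, and 7.57 CPM in the SASCs, 9.10, 10.7, and 11.3 in the PASCs, and 9.46, 8.71, and 9.08 in the EASCs. SASCs were lowest without overlap.

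The log2 fold change of Cry1 was 0.46 ± 0.12 in PASCs (adjusted p = 0.00137) and 0.28 ± 0.12 in EASCs (adjusted p = 0.0453). With total counts the PASCs value missed the threshold (0.14, adjusted p = 0.538) and the EASCs value turned to -0.12. The EASCs call is weak in other ways too: it was lost with DESeq2 (adjusted p = 0.0897), with no filter on low counts (0.0718), and without any one of the SASCs or EASCs samples (adjusted p from 0.0516 to 0.123) or PASCs replicate 2 (0.0506).

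**Figure D2:**
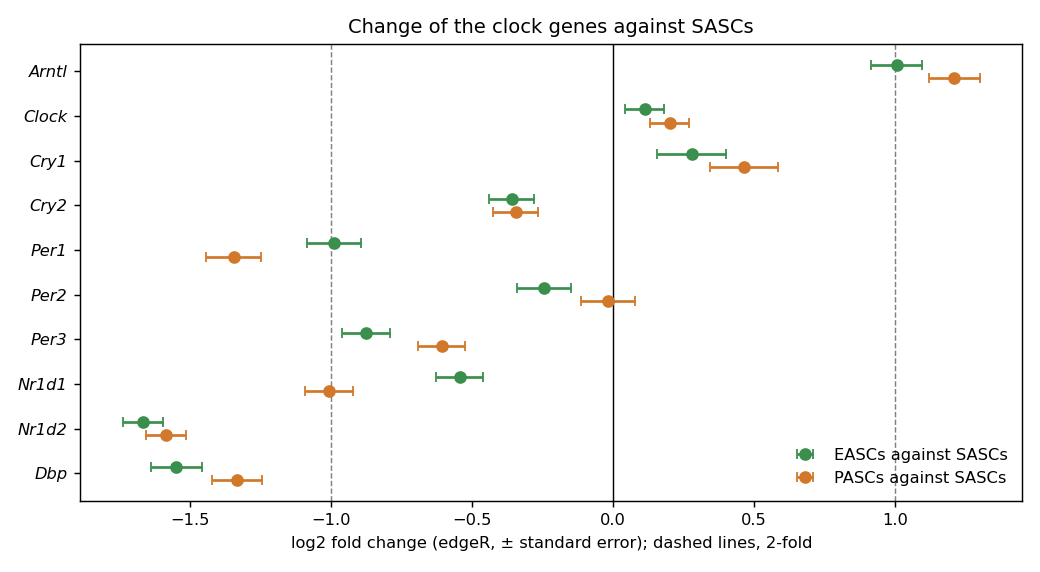
Log2 fold change ± SE (horizontal axis) of each clock gene (rows) in EASCs and PASCs against SASCs, with dashed lines at 2-fold. Nr1d2 and Dbp lie beyond 2-fold to the left in both comparisons and Arntl to the right, at 1.01 in EASCs. Clock and Cry1 lie to the right of 0 under TMM, but with total counts Clock lies to the left in both comparisons and Cry1 in EASCs.

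Between the visceral groups, Nr1d1, Per1, and Per3 differed by adjusted p, and the share of clock genes that passed was near that of all genes. None of the 10 was a DEG between EASCs and PASCs by edgeR or by DESeq2, beside 5.19% of all genes tested higher and 2.20% lower in EASCs. At an adjusted p below 0.05, 3 of 10 passed, beside 30.7% of all genes. At an unadjusted p below 0.05 it was 6 of 10, beside 39% of all genes. The 3 that passed by adjusted p were Nr1d1, given above, Per1, higher in EASCs by 0.35 ± 0.10 (adjusted p = 0.00876), and Per3, lower by 0.27 on the log2 scale (-0.27 ± 0.09, adjusted p = 0.0182). With total counts none of the 3 passed. The Per1 call was lost without PASCs replicate 3 (adjusted p = 0.0566) or EASCs replicate 3 (0.0585), and that of Per3 without PASCs replicate 2 (0.123) or EASCs replicate 1 (0.0872).

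For Arntl (-0.21 ± 0.08, adjusted p = 0.0664) and Dbp (-0.21 ± 0.10, adjusted p = 0.0937) the difference between EASCs and PASCs missed the threshold. It passed for Arntl without PASCs replicate 3 (adjusted p = 0.0424) or EASCs replicate 3 (0.0265), and for Dbp without PASCs replicate 1 (0.0422) or EASCs replicate 2 (0.0352). Nr1d2 differed by -0.08 ± 0.08 and Cry2 by -0.01 ± 0.08, with overlapping samples. The median over the 10 genes was -0.14, beside -0.01 over all genes tested.

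Ratios of counts within a sample do not depend on how libraries are scaled, and they show the same contrast between Arntl and the genes on the other side of the loop. The log2 ratio of Nr1d2 to Arntl counts was 2.40, 2.33, and 2.51 in the SASCs, -0.45, -0.37, and -0.33 in the PASCs, and -0.25, -0.21, and -0.32 in the EASCs. SASCs thus held several times more Nr1d2 than Arntl reads, and in every visceral sample Arntl had more. The log2 ratio of Dbp to Arntl was 1.93 ± 0.106 in SASCs, -0.61 ± 0.268 in PASCs, and -0.63 ± 0.238 in EASCs (mean ± SD, n = 3). That of Nr1d1 to Arntl was 1.40 ± 0.157, -0.82 ± 0.107, and -0.15 ± 0.115, which sets EASCs between the other groups. Counts are not corrected for gene length, so a log2 ratio of 0 does not mark equal levels per kilobase. By group means per kilobase, Dbp exceeded Arntl in both visceral groups, and Nr1d1 exceeded Arntl in EASCs.

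Within gene families the balance also differed by depot. The log2 ratio of Per1 to Per2 was 0.75 ± 0.133 in SASCs, -0.59 ± 0.250 in PASCs, and 0.00 ± 0.0264 in EASCs. For Cry2 to Cry1 it was 2.30 ± 0.0814, 1.49 ± 0.101, and 1.66 ± 0.118, and for Clock to Arntl 2.21 ± 0.112, 1.20 ± 0.138, and 1.32 ± 0.236. In each of these 6 ratios the SASCs samples lay above every visceral sample. The ratios recombine the counts of the comparisons above and are given as a description.

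**Figure D3:**
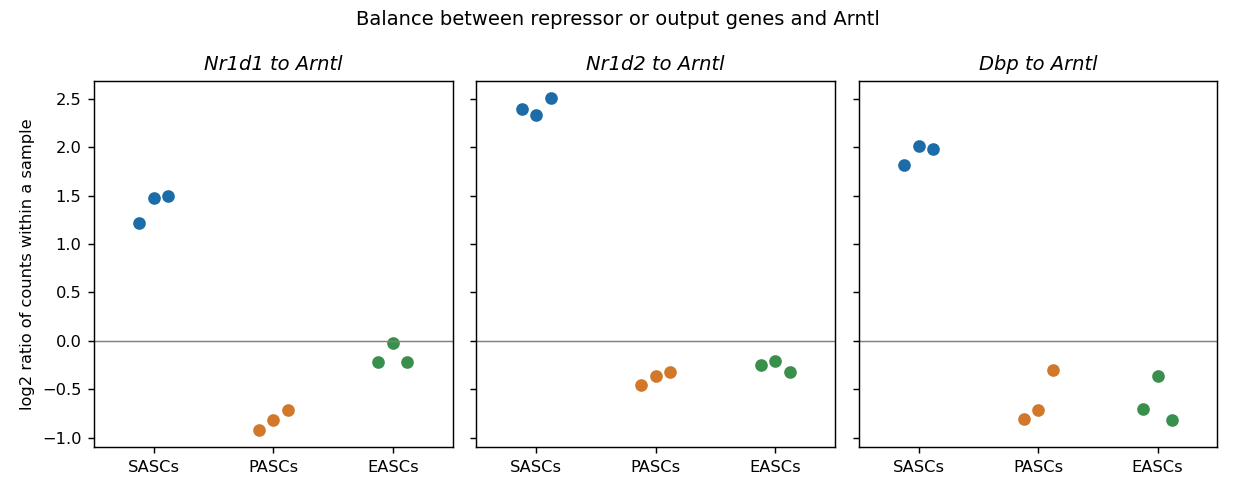
Log2 ratio of Nr1d1, Nr1d2, and Dbp counts to Arntl counts within each of the 9 samples (vertical axis), with a line at equal counts. All 3 SASCs samples lie above the line in each panel, from 1.22 upward, and all 6 visceral samples lie below it. Counts are not corrected for gene length.

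Compared per kilobase of gene length as the table gives it, the order of the members differed by depot. In SASCs Dbp led at 29.3 CPM per kb, followed by Nr1d2 at 14.7 and Nr1d1 at 13.2, which overlapped, then Cry2 at 9.30, Per3 at 6.72 and Clock at 6.31, which overlapped. Below them came Arntl at 4.25, Per1 at 3.56, Per2 at 2.83, and Cry1 at 2.54. In PASCs Dbp (11.7) was followed by Arntl (9.82), then by Cry2 (7.33), Clock (7.25), and Nr1d1 (6.54), neighbours that overlapped. Nr1d2 (4.89) and Per3 (4.39) also overlapped there, and Cry1 (3.52), Per2 (2.79), and Per1 (1.39) were last.

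In EASCs, Dbp (9.99 CPM per kb), Nr1d1 (9.02), and Arntl (8.54) led, each overlapping the next. Cry2 (7.26) and Clock (6.81) overlapped, and Nr1d2 (4.63), Per3 (3.65), Cry1 (3.08), Per2 (2.39), and Per1 (1.80) followed without overlap. Arntl thus ranked 7 of 10 in SASCs, 2 in PASCs, and 3 in EASCs. Nr1d2 ranked 2 in SASCs and 6 in both visceral groups.

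Since the hour of harvest can shape clock gene levels, the spread among replicates is given for each gene. The SD of log2 CPM within groups ran from 0.0651 for Nr1d2 to 0.141 for Dbp, and the median over the 10 genes was 0.102. Over all genes tested the median was 0.133, but low genes spread more, and among the 6312 other genes with a mean log2 CPM between 3.17 and 5.98, the range of the members, the median was 0.103 (quartiles 0.0791 and 0.134). Of the 10 clock genes, 7 lay below that median, and only Dbp lay above the upper quartile. The spread of these genes was thus like that of other genes read at their level.

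The highest replicate exceeded the lowest by at most 1.28-fold in any group, for Per1 in PASCs, and by 1.27-fold for Dbp in PASCs. Those were opposed, with Per1 lowest and Dbp highest in PASCs replicate 3. In each group 1 replicate was the lowest for 6 of the 10 genes (SASCs replicate 2, PASCs replicate 1, and EASCs replicate 1). The highest was most often EASCs replicate 3 (7 genes), PASCs replicate 2 (5), and SASCs replicates 1 and 3 (4 each). EASCs replicate 3 is also the library with 40.3% of its counts on ribosomal RNA genes and the lowest TMM factor (0.740), and the part of either in its levels was not tested. Against this spread, the change from SASCs was 10.8 and 13.0 times the within-group SD for Arntl in EASCs and PASCs, 10.99 and 9.46 times for Dbp, and 7.56 and 10.3 times for Per1, but 1.10 and 1.97 times for Clock.

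For 9 of 10 clock genes the samples of EASCs and SASCs did not overlap, and likewise for 9 of 10 in PASCs against SASCs, beside 72.1% and 71.6% of all genes tested. Between EASCs and PASCs it was 4 of 10, beside 41.2%. An exact permutation test (two-sided) of 3 samples against 3 cannot go below 0.1, which each of these genes reached. The spread within groups does not show whether the groups were harvested at the same time.

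**Figure D4:**
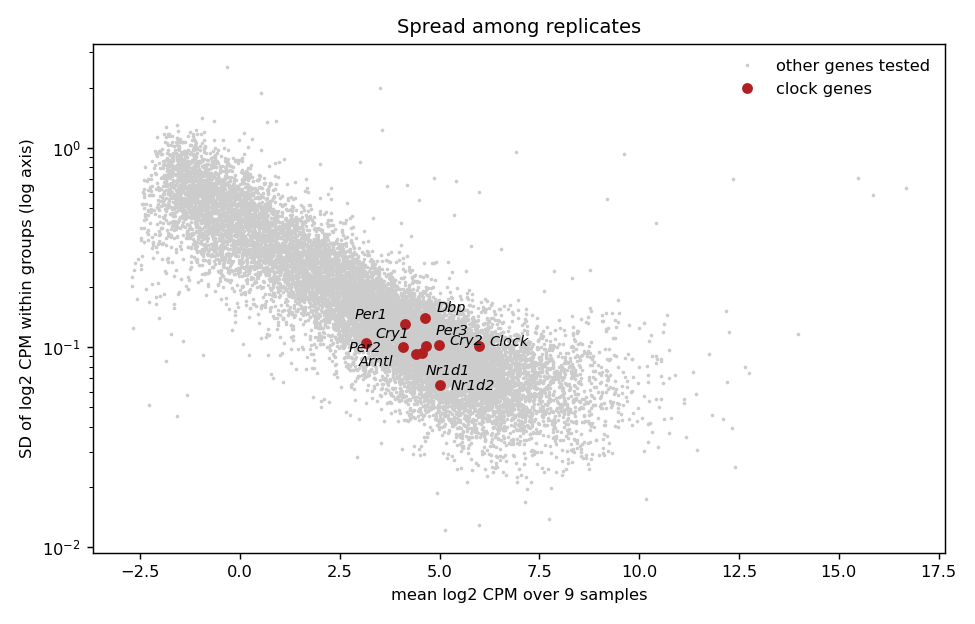
SD of log2 CPM within groups (vertical axis, log scale) against mean log2 CPM over the 9 samples (horizontal axis), with 1 grey point for each other gene tested and red points for the 10 clock genes. The clock genes lie within the cloud of genes read at like levels, Nr1d2 lowest at 0.0651 and Dbp highest at 0.141.

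Other genes tied to the clock were taken as a list of 17, of which 16 were found by symbol or gene ID and 15 passed the filter (Hlf was not used here, and Rorb had at most 10 counts in a sample). In EASCs 2 were higher DEGs (Timeless and Ccrn4l, the symbol the table gives for Noct) and 1 was lower (Npas2). In PASCs 1 was higher (Timeless) and 1 lower (Npas2). At an adjusted p below 0.05, 11 passed in each comparison, 7 higher and 4 lower, and 4 did not. These counts stand near the shares over all genes tested (13.6% higher and 14.2% lower DEGs and 69.7% by adjusted p in EASCs, and 12.0%, 14.9%, and 69.2% in PASCs). With total counts 5 of those 7 in EASCs (Bhlhe41, Ciart, Csnk1d, Btrc, and Fbxw11) and 1 in PASCs (Fbxw11) turned negative. The median log2 fold change over the 15 was -0.079 in EASCs and 0.13 in PASCs, beside 0.01 and -0.01 over all genes tested.

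Npas2, a paralog of Clock that also pairs with ARNTL, averaged 4.90 CPM in SASCs, 0.738 in PASCs, and 0.918 in EASCs, with log2 fold changes of -2.76 ± 0.30 and -2.43 ± 0.29 in PASCs and EASCs (adjusted p = 5.24e-09 and 2.92e-08). It had 14 to 33 counts in visceral samples. Timeless, which acts at the replication fork in mammalian cells, averaged 5.74 CPM in SASCs, 25.9 in PASCs, and 20.3 in EASCs (log2 2.16 ± 0.11 and 1.81 ± 0.11). Timeless was higher where the proliferation genes given further on were higher, and a link between them was not tested. Ccrn4l, which encodes the deadenylase nocturnin, averaged 2.22 CPM in SASCs, 3.71 in PASCs, and 4.63 in EASCs (log2 0.74 ± 0.22 and 1.07 ± 0.21), and it was no DEG in EASCs with total counts or without SASCs replicate 1 or SASCs replicate 2. Tef, a D-box factor of the same family as Dbp, was lower by less than 2-fold (log2 -0.67 ± 0.07 in PASCs and -0.76 ± 0.07 in EASCs).

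Bhlhe41, a repressor that binds E-boxes, was higher under TMM, with log2 0.81 ± 0.10 in PASCs and 0.25 ± 0.10 in EASCs, and with total counts it stayed higher in PASCs (0.49) but turned in EASCs (-0.15). Rora activates Arntl through the element that the REV-ERBs bind, and it was lower in both groups (log2 -0.67 ± 0.08 in PASCs and -0.46 ± 0.08 in EASCs).

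**Figure D5:**
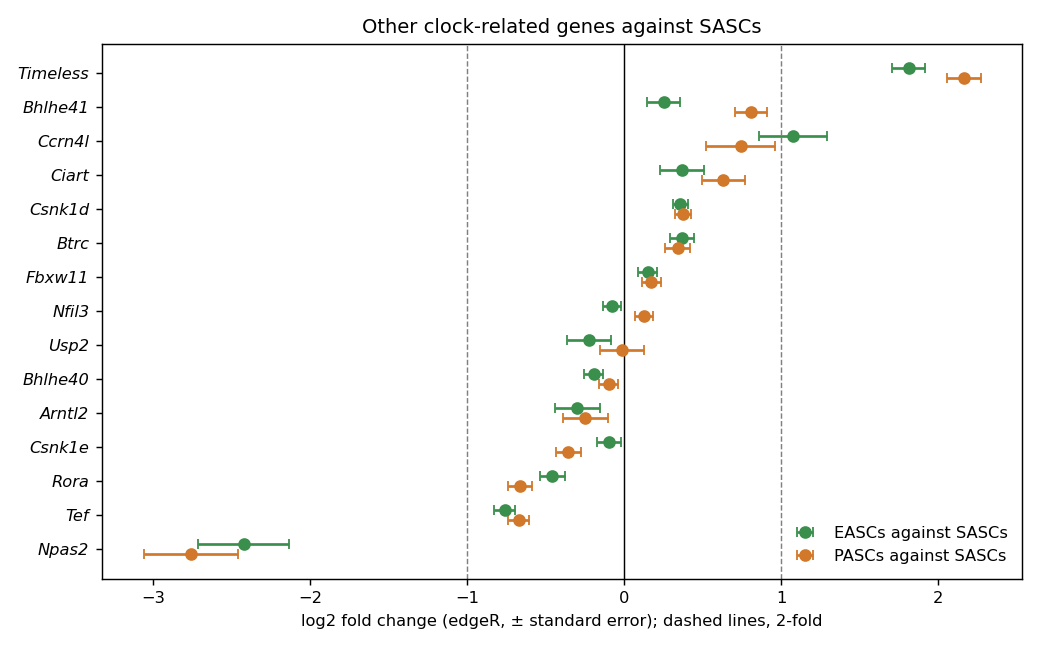
Log2 fold change ± SE (horizontal axis) of the 15 other clock-related genes tested (rows) in EASCs and PASCs against SASCs under TMM scaling, with dashed lines at 2-fold. Timeless lies furthest to the right, at 1.81 and 2.16, and Npas2 furthest to the left, at -2.43 and -2.76.

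Genes that the clock drives in many tissues divided. Of 6, Nampt, the rate-limiting enzyme of NAD salvage, and the Krüppel-like factors Klf9 and Klf15 were lower DEGs in both groups, beside 14.2% of all genes tested in EASCs and 14.9% in PASCs. Nampt averaged 168 CPM in SASCs, 50.6 in PASCs, and 32.4 in EASCs, Klf9 109.6, 38.3, and 42.3, and Klf15 31.1, 9.97, and 8.98. Wee1, Klf10, and Cdkn1a, which act in the cell cycle and growth arrest, were higher by less than 2-fold under TMM, with log2 fold changes from 0.42 to 0.80. With total counts all 3 kept the sign, and only Cdkn1a in EASCs still passed (log2 0.41, adjusted p = 0.0209).

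Serum and glucocorticoids set the clock of cultured cells, and genes that answer them differed between the depots too. Of 10 immediate early genes, 5 were lower DEGs in both visceral groups (Fos, Junb, Egr1, Egr2, and Ier2), and Sik1 was a higher DEG in EASCs, beside 14.2% of all genes tested that were lower DEGs in EASCs, 14.9% in PASCs, and 13.6% higher in EASCs. Fosb and Crem passed in neither comparison. Fos averaged 44.8 CPM in SASCs, 4.91 in PASCs, and 5.80 in EASCs, and Egr1 387 CPM, 33.8, and 31.4. Immediate early genes are known to answer serum and handling within minutes, and their part in the clock gene differences was not tested.

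Of 6 genes of the glucocorticoid response, Nr3c1, the glucocorticoid receptor, was lower in both groups (207 CPM in SASCs, 82.9 in PASCs, and 82.8 in EASCs). Hsd11b1, which regenerates active glucocorticoid, averaged 569 CPM in SASCs, 165 in PASCs, and 113 in EASCs. By adjusted p all 6 passed in each group, 5 lower and 1 higher. Of all genes tested, 69.7% passed in either direction in EASCs and 69.2% in PASCs. As DEGs, 3 of the 6 were lower and 1 was higher in each group. Among all genes tested, 14.2% were lower and 13.6% higher DEGs in EASCs, and 14.9% and 12.0% in PASCs. Targets of the receptor went both ways: Tsc22d3 was higher, at 29.0, 71.4, and 65.3 CPM, while Fkbp5 (log2 -0.39 in PASCs and -0.84 in EASCs) and Sgk1 (-0.91 and -0.72) were lower. Zbtb16, the other lower DEG, had 57 to 85 counts in SASCs, 0 in all PASCs samples, and at most 4 in EASCs samples.

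Levels of proliferation and smooth muscle genes differed with depot alongside the clock genes. All 8 proliferation genes (Mki67, Top2a, Cdk1, Ccnb1, Ccna2, Plk1, Aurkb, and Birc5) were higher DEGs in both visceral groups, beside 13.6% of all genes tested in EASCs and 12.0% in PASCs, with summed levels of 73.1 to 75.8 CPM in the SASCs, 641 to 649 in the PASCs, and 377 to 388 in the EASCs. Smooth muscle genes (4 of 4 higher DEGs in both, beside those same shares) summed to 86.4 to 91.2 CPM in the SASCs, 1081 to 1120 in the PASCs, and 2912 to 2951 in the EASCs. The summed level of the 10 clock genes was 340 to 361 CPM in the SASCs, 238 to 259 in the PASCs, and 230 to 242 in the EASCs. Smooth muscle genes and proliferation genes order the visceral depots in opposite ways. Their part in the clock gene differences was not tested.

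Markers of other cells that fat cultures can hold were also summed. Their DEG counts stand beside 13.6% higher and 14.2% lower DEGs among all genes tested in EASCs, and 12.0% and 14.9% in PASCs. Mesothelial markers (Msln, Upk3b, Lrrn4, and Krt19, the last at or near 0) gave 15.6 to 17.1 CPM in the SASCs, 55.8 to 60.5 in the PASCs, and 72.2 to 80.4 in the EASCs, and 3 of 4 were higher DEGs in both. Leukocyte markers (Ptprc, Cd68, and Itgam) gave 13.5 to 16.9, 21.1 to 23.9, and 45.9 to 47.9 CPM, with 3 of 3 higher DEGs in EASCs and 1 in PASCs. Endothelial markers (Pecam1, Cdh5, and Tek) gave 21.4 to 23.2, 9.11 to 11.4, and 22.6 to 26.3 CPM, but they did not move together: Tek was a higher DEG in both groups (log2 1.71 in PASCs and 1.66 in EASCs), while Pecam1 and Cdh5 were lower DEGs in PASCs (-3.20 and -2.99). Adipocyte markers (Adipoq, Plin1, and Lep, the last near 0) gave 51.9 to 58.4, 13.0 to 14.0, and 5.55 to 6.04 CPM, and the 2 tested were lower DEGs in both. The part of these cells in the clock gene differences was not tested.

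Genes whose level followed the clock genes most closely were ranked by Pearson's r of log2 CPM over the 9 samples, which fall into the 3 depots and share their libraries, so that r mostly reflects the group means. For Arntl the 5 closest were LOC691153 (r = 0.998), Csnk2b (0.997), Cenpm (0.996), Rad9a (0.996), and LOC103692580 (0.995), and 1361 of the genes tested had r above 0.95. For Dbp they were Akr1cl (0.995), Adam17, Tspan11, Zmym6, and Pikfyve (0.994 each), with 1100 above 0.95. No clock gene was among either set of 5. Such patterns were common among all genes, and likeness is given as a description.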

How the data were processed

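The authors sequenced paired-end reads of 150 bases, trimmed them with cutadapt and FastX-Toolkit, aligned them with TopHat (TopHat2 in the submitters' processing notes), and deposited raw read counts per gene for 35362 genes in 9 samples. The tool that counted the reads, its use of strand, and its handling of reads matching several genes are not given in the sources used here. Samples were grouped by their labels. The counts were scaled by TMM and fitted over all 3 groups with edgeR (version 4.0.16, R 4.3.3, limma 3.58.1) after its default filter, which left 14770 genes. SEs were taken from the fold change and its F statistic, and log2 CPM used a prior count of 2. The model was tested on simulated data with the same dispersion for all genes and changes in EASCs only. That test did not hold the shift in rRNA share seen between these samples. Alternatives were DESeq2 (1.42.0), no filter on low counts, only the groups compared, a replicate block, total counts, upper quartile scaling, removal of rRNA genes, and leaving out each sample in turn. A total of 3 counts corresponds to 0.104 to 0.159 CPM in these libraries. On raw counts with rRNA genes included and no TMM scaling, no 2 replicates lay within sampling noise of each other (chi-square per degree of freedom 6.23 to 288). The largest value was for EASCs replicates 2 and 3, with rRNA shares of 15.9% and 40.3%. The part of the rRNA share in these values was not tested.

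The members and gene lists were chosen with earlier results of these data known. Values were given for all 10 members, up to 6 genes of each list with the largest change from SASCs (further list genes are named to show which were counted), the 5 genes most correlated with Arntl and with Dbp, and genes overlapping a member. Some genes are not reported here. Sequences came from RefSeq (build GRCr8) and were matched by gene ID. Motif searches covered the 250 bases before and the 50 after each start.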

Additional observations from a re-analysis of the deposited data

How the results depend on the processing

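With total counts in place of TMM, the median log2 fold change of all genes moved to -0.39 in EASCs, -0.33 in PASCs, and -0.08 between EASCs and PASCs, so low-amplitude changes turned: Cry1 in EASCs gave -0.12, and Clock gave -0.27 in EASCs and -0.13 in PASCs. Relative to that median, Cry1 stood at 0.27 in EASCs, Clock at 0.12 and 0.21, and Arntl at 0.99 in EASCs and 1.21 in PASCs, close to the TMM values. Under this setting 0 clock genes were higher DEGs in EASCs and 0 in PASCs, 4 were lower DEGs in EASCs (Per1 and Per3 joined), and 0 passed by adjusted p between EASCs and PASCs. Among the other clock-related genes, 1 was a higher DEG and 2 were lower DEGs in EASCs (Tef joined Npas2), and 1 passed by adjusted p between EASCs and PASCs. Of all genes, 3426 were lower DEGs in EASCs against 2103 with TMM. DESeq2 gave 0 higher clock DEGs in EASCs, since Arntl fell just under 2-fold. Over the single samples left out, higher clock DEGs in EASCs ranged from 0 to 1, higher other genes from 1 to 2, and other genes passing by adjusted p between EASCs and PASCs from 3 to 5. In the main fit 5 of the 15 other genes passed between EASCs and PASCs, beside 30.7% of all genes tested. Values near 0 changed sign: over the single samples left out, Per2 in PASCs ranged from -0.068 to 0.050 and Cry2 between EASCs and PASCs from -0.061 to 0.026, and the latter was 0.014 with upper quartile scaling. Same-numbered samples did not deviate together (correlations from -0.0348 to 0.038), so the numbers do not pair the samples. With a replicate block the DEG calls among the 10 genes were those of the unblocked fit (1 higher and 2 lower in EASCs, 1 higher and 4 lower in PASCs). Cry1 in EASCs kept 0.28 there, but its call by adjusted p was lost (0.0514). Of the 480 single-gene values under alternatives, judged by the adjusted p alone and not by fold change, 442 kept direction and side of the threshold, 24 lost it, 5 gained it, and 9 changed sign. DEG calls that crossed 2-fold (Arntl, Per1, Per3, and Nr1d1) are given with those genes.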
